A study of Mus musculus with 10 samples.

Results

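The tumor necrosis factor (TNF) ligands and their receptors were followed in mouse kidney carrying the APOL1 risk alleles G1 and G2. The members are the protein-coding genes whose mouse symbol begins with Tnfsf or Tnfrsf, together with Tnf, Lta, Ltb, Ltbr, Fas, Fasl, Cd27, Cd70, Cd40, Cd40lg, Ngfr and Eda2r. They number 44 of the 46517 gene IDs counted, 26 of them receptors and 18 ligands, and all 44 were found. RNA-seq read counts from whole kidney were available for 10 libraries in 4 groups named by the genotype label: G1-APOL1 and G2-APOL1 with 2 libraries each, and wild type (single mutant) and Control with 3 each. APOL1 is a human gene that mice lack, and G1 and G2 are its coding variants linked to kidney disease in people. The series title places the expressed variant in podocytes, the filtration cells of the glomerulus. The labels state neither the promoter that drives it nor the age, sex or strain of the mice, nor what the single mutation of the wild type (single mutant) group is. Nothing in the labels says whether libraries of a group came from separate mice, and the p-values below therefore measure library-to-library spread, which may be technical. The human transcript was not analysed here, and the genotype labels were therefore not checked against it.

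Ligands of the TNF superfamily are mostly membrane-anchored or shed trimers made by immune and stromal cells, and they signal by clustering receptors on nearby cells. Receptors with a death domain can start cell death, while receptors without one recruit TRAF adaptors that activate NF-kB and MAP kinase signalling. Soluble or truncated decoy receptors bind ligand without passing a signal on. In the kidney, TNF and TWEAK (Tnfsf12) and their receptors are known for their part in inflammation and tubular injury, and shed forms of both TNF receptors are followed in blood as markers of kidney disease.

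Levels are given as CPM, counts per 1000000 of a library total scaled by the TMM method, with 1 value for each library. Libraries held 27596391 to 34815153 counts, so 3 counts corresponded to 0.0862 to 0.109 CPM. A total of 6 comparisons were made in 1 edgeR quasi-likelihood fit over all genes, and a gene was called when its Benjamini-Hochberg adjusted p over 17823 genes was under 0.05. Fold changes are log2 values ± standard error. The mean of G1 and G2 was compared with 2 genotypes, Control and wild type (single mutant), and both of these comparisons share the same 4 G1 and G2 libraries. The G1 and G2 kidneys differed from the others in much besides these families. All 9 injured tubule markers were called higher against Control and all 8 proximal tubule markers lower. Of all genes tested, 19.3% were called higher and 18% lower there. The summed injured tubule markers ran from 20900 to 30000 CPM in G1 and from 4970 to 8730 CPM in G2, against 888 to 1410 CPM in wild type (single mutant) and 827 to 1310 CPM in Control. Spp1 supplied most of the sum in G1 and G2. Without it the other 8 markers summed to 3282 to 3962 CPM in G1 and 1553 to 1805 CPM in G2, against 361 to 444 CPM in wild type (single mutant) and 354 to 609 CPM in Control. Their part in the results below was not tested.

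Of the 44 members, 35 had enough counts to be tested, 23 receptors and 12 ligands. Against Control, 19 of these 35 were higher in the mean of G1 and G2 and 1 was lower. Over all genes tested, 19.3% were called higher and 18% lower in the same comparison. The higher members were 13 receptors and 6 ligands, and the lower one was the receptor Tnfrsf21. The median log2 fold change of the tested members was 1.11, against 0.00 over all genes. Against wild type (single mutant), 22 of the 35 were higher and 0 were lower, where 20.7% of all genes were called higher and 19.3% lower. DESeq2 gave 0 lower members there as well, and 24 of 35 members and 49% of all genes passed an unadjusted p under 0.05 in the edgeR test. The median was 1.24. Of the members called higher, 18 were so in both comparisons, 1 (Tnfsf14) against Control alone and 4 (Tnfrsf11a, Tnfsf9, Tnfsf13b and Eda2r) against wild type (single mutant) alone. The 4 G1 and G2 libraries lay above all 3 Control libraries, without overlap, for 20 members, where 20.7% of all genes did so.

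Tnf, Tnfrsf9 and Tnfsf8 reached the low-count limit of 0.323 CPM in enough libraries through the G1 and G2 kidneys alone. Without them, 16 of 32 members were called higher against Control and 19 of 32 against wild type (single mutant). The medians were then 1.04 and 1.12. They were also among the 20 members whose G1 and G2 libraries lay above Control without overlap, which the filter favours.

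**Figure D1:**
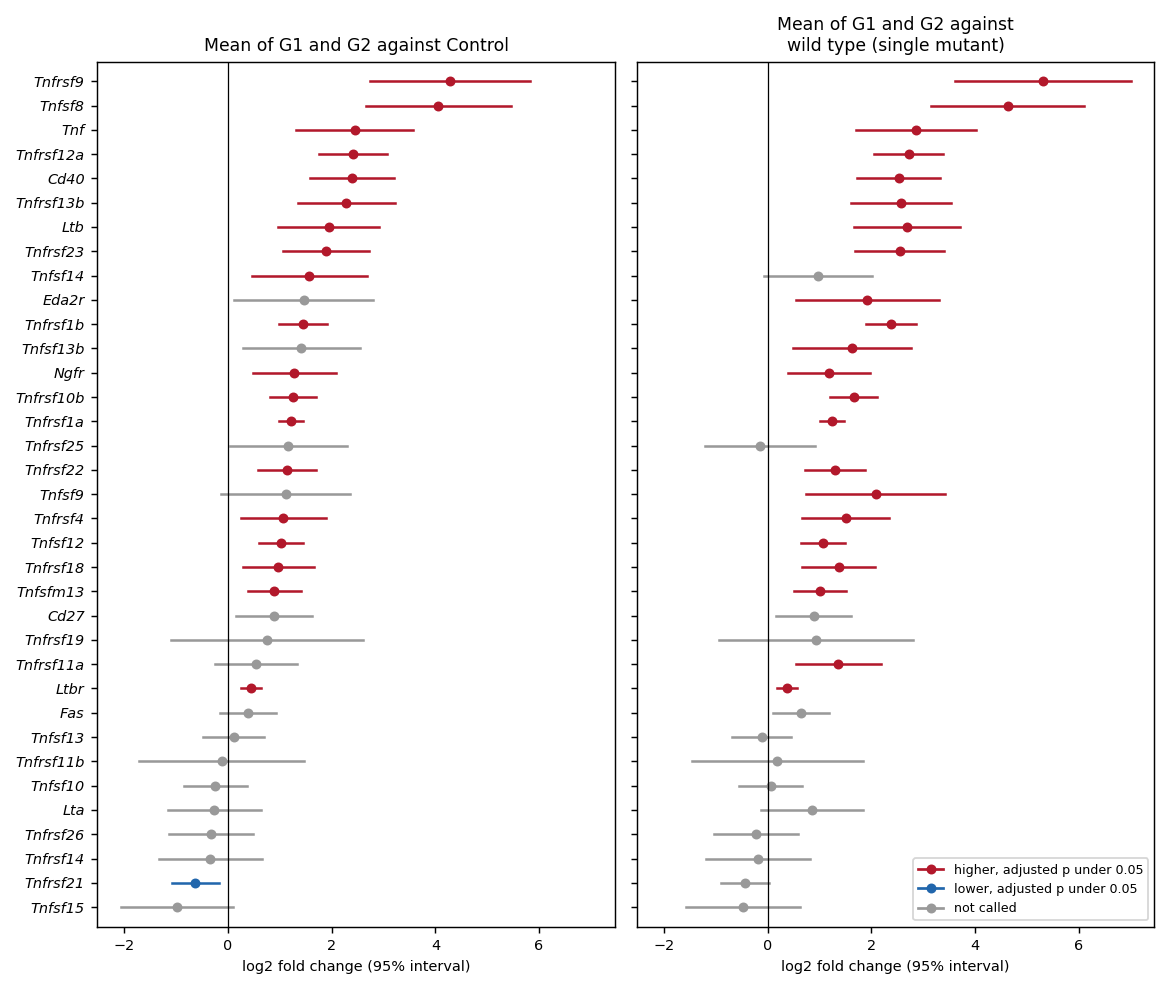
Log2 fold change (horizontal axis) with its 95% interval for the 35 tested members, mean of G1 and G2 against Control on the left and against wild type (single mutant) on the right, on a common scale. Red marks members called higher and blue the member called lower; grey members were not called. The estimates farthest to the right, those of Tnfrsf9, 4.28 and 5.31, and of Tnfsf8, 4.05 and 4.63, belong to members that passed the low-count filter through the G1 and G2 libraries alone. Tnfrsf21 is the only member called lower in either panel.

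Ranked by mean CPM per kilobase of exon over the 10 libraries, which allows levels of different genes to be set side by side, receptors held the first 4 places. Tnfrsf21 (death receptor 6) led, followed by Ltbr, Tnfrsf12a and Tnfrsf1a. The most abundant ligands were Tnfsf12 and Tnfsf10 (TRAIL). The order among the leading receptors differed by group. In CPM per kilobase, Tnfrsf12a stood at 115 ± 4.38 in G1 and 34.1 ± 11.9 in G2, against 9.45 ± 2.22 in wild type (single mutant) and 11.8 ± 4.33 in Control (mean ± SD over 2, 2, 3 and 3 libraries). Tnfrsf21 stood at 93.6 ± 12.8 in G1 and 62 ± 7.58 in G2, against 103 ± 28.6 in wild type (single mutant) and 118 ± 22.8 in Control. In the G1 mean Tnfrsf12a was thus above Tnfrsf21, and in the other 3 groups below it. The ligand Tnf was low everywhere, at 1.09 ± 0.479 CPM per kilobase in G1 and 0.817 ± 0.274 in G2, against 0.126 ± 0.107 in wild type (single mutant) and 0.171 ± 0.023 in Control.

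**Figure D2:**
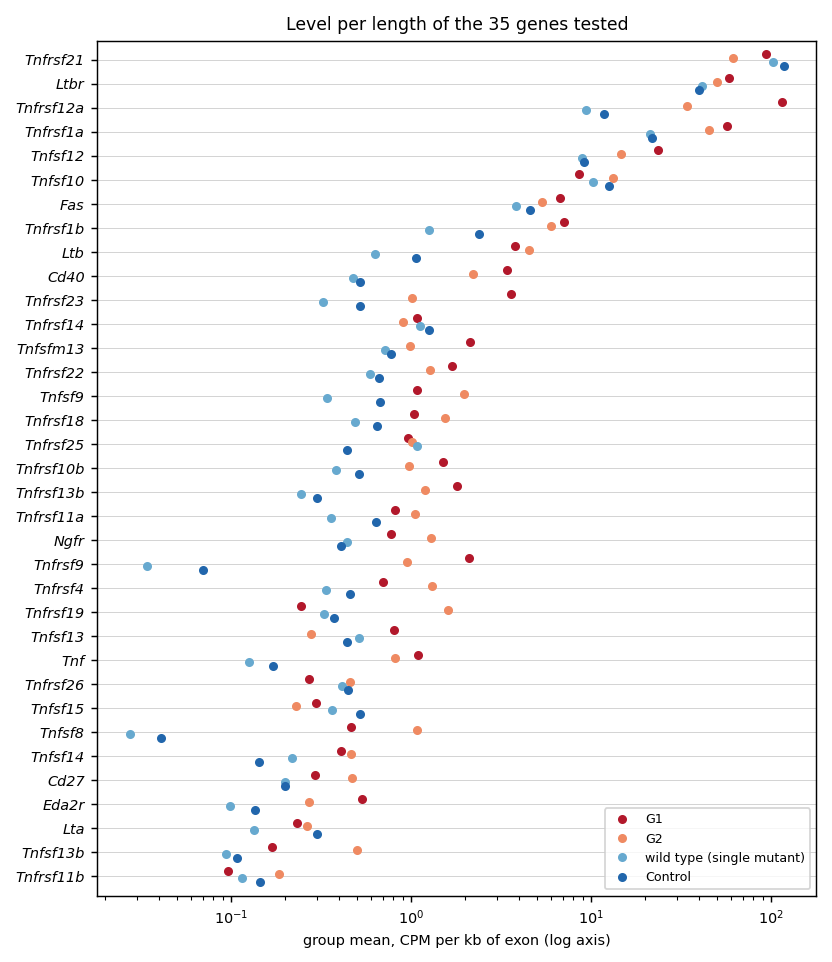
Mean CPM per kilobase of exon (log axis) of the 35 tested members, 1 point for each group mean. Tnfrsf12a stands at 115 in G1 and 34.1 in G2, against 9.45 in wild type (single mutant) and 11.8 in Control.

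Both TNF receptors were higher in the risk-allele kidneys. Tnfrsf1a (ENSMUSG00000030341.16, chr6:125349362-125362484, plus strand) encodes the death-domain receptor TNFR1, found on most cell types. It had 149 and 147 CPM in G1 kidneys and 114 and 121 CPM in G2 kidneys, against 51.5, 50.7 and 64.5 CPM in wild type (single mutant) kidneys and 56.1, 59.6 and 54.5 CPM in Control kidneys. Every G1 and G2 library lay above every other library. The log2 fold change was 1.21 ± 0.10 against Control (adjusted p = 9.31e-05) and 1.24 ± 0.10 against wild type (single mutant) (adjusted p = 7.87e-05), the lowest adjusted p of any member in both comparisons. Tnfrsf1b (ENSMUSG00000028599.9, chr4:145213463-145246870, minus strand) encodes TNFR2, which has no death domain and is most abundant on leukocytes and endothelium. Its level was 28.8 and 25.5 CPM in G1 kidneys and 26.3 and 19.9 CPM in G2 kidneys, against 4.07, 4.16 and 6.13 CPM in wild type (single mutant) kidneys and 11.3, 8.11 and 7.99 CPM in Control kidneys. Here too the G1 and G2 libraries stood clear of the rest, and the wild type (single mutant) libraries were all below the Control libraries. On the log2 scale it was 1.45 ± 0.20 against Control (adjusted p = 0.000871) and 2.38 ± 0.21 against wild type (single mutant) (adjusted p = 0.000108).

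In whole kidney, more or fewer cells of a type and more or less RNA per cell cannot be told apart. Macrophage and dendritic cell markers were read from the same fit. Of the 13 on that list, 10 were called higher against Control and 0 lower, where 19.3% and 18% of all genes were. The summed level of the 13 was 671 to 900 CPM in G1 and 661 to 1010 CPM in G2, against 139 to 170 CPM in wild type (single mutant) and 150 to 208 CPM in Control. No marker of the list was at 0 throughout a group. Their part in the receptor differences was not tested.

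Tnfrsf12a (ENSMUSG00000023905.13, chr17:23675445-23677468, minus strand) encodes Fn14, the receptor for TWEAK, which is induced by growth factors and tissue injury. It had 228 and 216 CPM in G1 kidneys and 82.1 and 49.6 CPM in G2 kidneys, against 16.8, 23.1 and 14.9 CPM in wild type (single mutant) kidneys and 31.7, 15.1 and 21.5 CPM in Control kidneys. The G1 libraries were the highest, the G2 libraries lay between, and the 6 remaining libraries overlapped one another. In log2 terms the fold change was 2.41 ± 0.29 against Control (adjusted p = 0.000421) and 2.73 ± 0.29 against wild type (single mutant) (adjusted p = 0.000223). Ltbr (ENSMUSG00000030339.7, chr6:125306571-125313885, minus strand), the lymphotoxin beta receptor of stromal and epithelial cells, had a smaller difference. Its values were 143 and 132 CPM in G1 kidneys and 127 and 109 CPM in G2 kidneys, against 96.9, 104 and 93.8 CPM in wild type (single mutant) kidneys and 95.2, 95.2 and 90.5 CPM in Control kidneys. All 4 G1 and G2 libraries were above the other 6, by a small margin in the second G2 library. The edgeR log2 fold change was 0.44 ± 0.08 against Control (adjusted p = 0.00378) and 0.37 ± 0.08 against wild type (single mutant) (adjusted p = 0.00749).

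Receptors of antigen-presenting and B cells were next. Cd40 (ENSMUSG00000017652.15, chr2:165055627-165072948, plus strand), which receives help from T cells through CD40 ligand, had 11.5 and 11.9 CPM in G1 kidneys and 10.5 and 4.61 CPM in G2 kidneys, against 2.29, 0.986 and 1.6 CPM in wild type (single mutant) kidneys and 1.77, 1.99 and 1.59 CPM in Control kidneys. The second G2 library was lower than the other 3 risk-allele libraries but above all 6 of the others. Fitted over all genes, the log2 fold change was 2.39 ± 0.35 against Control (adjusted p = 0.00113) and 2.53 ± 0.36 against wild type (single mutant) (adjusted p = 0.000787). Tnfrsf13b (ENSMUSG00000010142.11, chr11:61126755-61149372, plus strand) encodes TACI, a receptor for the B cell survival factors BAFF and APRIL. It reached 5.16 and 5.09 CPM in G1 kidneys and 4.45 and 2.32 CPM in G2 kidneys, against 0.479, 0.548 and 1.06 CPM in wild type (single mutant) kidneys and 0.728, 1.3 and 0.517 CPM in Control kidneys, again with no overlap. The log2 fold change was 2.28 ± 0.42 against Control (adjusted p = 0.00308) and 2.57 ± 0.42 against wild type (single mutant) (adjusted p = 0.00162). Of 10 B and plasma cell markers, 1 (Blnk) was higher and 1 (Jchain) lower against Control, and their sum was 39.6 to 43.8 CPM in G1 and 60.9 to 70.1 CPM in G2, against 24.1 to 85.4 CPM in wild type (single mutant) and 61.7 to 156 CPM in Control. Of all genes, 19.3% were called higher and 18% lower against Control. The part of B cells in these receptor values was not tested. The other 2 receptors of this group, Tnfrsf13c (BAFF receptor) and Tnfrsf17 (BCMA), were too low to test.

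Costimulatory receptors of T and NK cells rose in part. Tnfrsf9 (ENSMUSG00000028965.12, chr4:150914562-150946102, plus strand), the activation marker CD137, had 5.87 and 5.59 CPM in G1 kidneys and 3.31 and 1.84 CPM in G2 kidneys, against 0.0342, 0.073 and 0.17 CPM in wild type (single mutant) kidneys and 0.208, 0.362 and 0 CPM in Control kidneys. Outside the risk-allele kidneys it was near the limit of detection, with 8 counts over the 3 wild type (single mutant) libraries and 16 over Control. On the log2 scale it was 4.28 ± 0.69 against Control (adjusted p = 0.00164) and 5.31 ± 0.75 against wild type (single mutant) (adjusted p = 0.000793). Without Control replicate 2, which held 10 of those 16 counts, the first value was 5.08. Without wild type (single mutant) replicate 3, with 5 of the 8, the second was 6.07. Tnfrsf18 (ENSMUSG00000041954.17, chr4:156026164-156028895, plus strand), known as GITR and abundant on regulatory T cells, had 1.63 and 1.56 CPM in G1 kidneys and 2.56 and 2.14 CPM in G2 kidneys, against 0.992, 0.657 and 0.579 CPM in wild type (single mutant) kidneys and 0.902, 1.38 and 0.676 CPM in Control kidneys. The lowest risk-allele library was only slightly above the highest Control library. In log2 terms the fold change was 0.97 ± 0.30 against Control (adjusted p = 0.0335) and 1.38 ± 0.31 against wild type (single mutant) (adjusted p = 0.00759). An antisense gene, Gm16008, overlaps 27.2% of its exon bases, and with the strand setting of the counting not given the 2 cannot be told apart.

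Tnfrsf4 (OX40), which sits 9.55 kb from Tnfrsf18 on chromosome 4, ranged from 0.813 to 2.34 CPM in G1 and G2, against 0.308 to 0.694 CPM in wild type (single mutant) and 0.557 to 0.724 CPM in Control. The edgeR log2 fold change was 1.06 ± 0.36 against Control (adjusted p = 0.0451) and 1.51 ± 0.37 against wild type (single mutant) (adjusted p = 0.0113). Cd27, carried by T and memory B cells, was not called: log2 fold change 0.88 ± 0.32 against Control (adjusted p = 0.059) and 0.89 ± 0.32 against wild type (single mutant) (adjusted p = 0.0532). Tnfrsf25 (DR3) was not called either, at 1.16 ± 0.50 against Control with adjusted p = 0.098 and -0.14 ± 0.47 against wild type (single mutant). Of the 14 T and NK cell markers, 9 were higher against Control and 0 lower. The shares over all genes were 19.3% higher and 18% lower. Without Cd8b1 and Klrb1c, which passed the filter through G1 and G2 alone, 8 of 12 were higher. The sum of all 14 was 22.2 to 35.3 CPM in G1 and 35.4 to 50.5 CPM in G2, against 11.5 to 20.0 CPM in wild type (single mutant) and 12.3 to 20.1 CPM in Control, with no marker at 0 throughout a group. The part of T cells in the receptor values was not tested. Against Control, the call of Tnfrsf18 was lost without any 1 of G1 replicates 1 and 2, G2 replicate 1 and Control replicates 1 and 3 (highest adjusted p over all alternatives 0.11), and that of Tnfrsf4 without any 1 of G1 replicates 1 and 2, G2 replicate 1, wild type (single mutant) replicate 3 and Control replicates 1, 2 and 3 (highest adjusted p over all alternatives 0.134), with DESeq2 and with no filter on low counts.

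Receptors for TRAIL include a signalling one and a pair of decoys in mouse. Tnfrsf10b (ENSMUSG00000022074.5, chr14:69767472-69784411, plus strand), the single mouse death receptor for TRAIL, had 6.76 and 9.67 CPM in G1 kidneys and 6.1 and 4.61 CPM in G2 kidneys, against 2.02, 1.86 and 2.42 CPM in wild type (single mutant) kidneys and 2.88, 2.79 and 2.7 CPM in Control kidneys. All 4 risk-allele libraries were above all others. Fitted over all genes, the log2 fold change was 1.25 ± 0.20 against Control (adjusted p = 0.00152) and 1.66 ± 0.20 against wild type (single mutant) (adjusted p = 0.000395). Tnfrsf23 (ENSMUSG00000037613.14, chr7:143665809-143685872, minus strand), a decoy, had 15.2 and 13.5 CPM in G1 kidneys and 3.25 and 4.83 CPM in G2 kidneys, against 1.51, 0.84 and 1.53 CPM in wild type (single mutant) kidneys and 3.05, 1.05 and 2.07 CPM in Control kidneys. Both G1 libraries stood far above the remaining 8, and the lower G2 library was just above the highest Control library. The log2 fold change was 1.88 ± 0.37 against Control (adjusted p = 0.00409) and 2.55 ± 0.38 against wild type (single mutant) (adjusted p = 0.00101). Its neighbour Tnfrsf22 (ENSMUSG00000010751.13, chr7:143634806-143649661, minus strand), the other decoy, had 7.76 and 6.45 CPM in G1 kidneys and 5.1 and 5.63 CPM in G2 kidneys, against 2.26, 1.9 and 3.34 CPM in wild type (single mutant) kidneys and 3.68, 2.35 and 2.39 CPM in Control kidneys, without overlap. On the log2 scale it was 1.14 ± 0.25 against Control (adjusted p = 0.0078) and 1.30 ± 0.25 against wild type (single mutant) (adjusted p = 0.00371). The 2 decoy genes share 377 windows of 100 bases, 9.31% of those of Tnfrsf23 and 8.97% of those of Tnfrsf22. Tnfrsf22 also shares windows with further genes, so the values of this pair are uncertain. The third gene of the cluster, Tnfrsf26, was not called: -0.33 ± 0.36 against Control (adjusted p = 0.495).

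Among the remaining receptors, Ngfr (ENSMUSG00000000120.6, chr11:95568818-95587735, minus strand), the low-affinity neurotrophin receptor of nerves and mesenchymal cells, had 3.2 and 2.14 CPM in G1 kidneys and 5.45 and 3.46 CPM in G2 kidneys, against 1.37, 0.876 and 2.32 CPM in wild type (single mutant) kidneys and 1.18, 1.56 and 1.51 CPM in Control kidneys. The risk-allele libraries overlapped wild type (single mutant) but not Control. In log2 terms the fold change was 1.28 ± 0.35 against Control (adjusted p = 0.0199) and 1.18 ± 0.35 against wild type (single mutant) (adjusted p = 0.0255). Tnfrsf11a (ENSMUSG00000026321.7, chr1:105780718-105847981, plus strand), known as RANK, had 5.19 and 4.61 CPM in G1 kidneys and 4.9 and 7.65 CPM in G2 kidneys, against 1.74, 1.13 and 3.61 CPM in wild type (single mutant) kidneys and 3.95, 3.51 and 3.98 CPM in Control kidneys. The Control libraries lay just under the risk-allele range, and the wild type (single mutant) libraries ran from 1.13 to 3.61 CPM. Its log2 fold change was 0.54 ± 0.35 against Control (adjusted p = 0.255), which was not called, and 1.36 ± 0.36 against wild type (single mutant) (adjusted p = 0.0164). Eda2r (ENSMUSG00000034457.9, chrX:97333840-97377216, minus strand), a receptor for the A2 form of ectodysplasin and a known p53 target, had 3.3 and 3.02 CPM in G1 kidneys and 1.79 and 1.4 CPM in G2 kidneys, against 0.582, 0.219 and 0.953 CPM in wild type (single mutant) kidneys and 1.56, 0.615 and 0.239 CPM in Control kidneys. The first Control library was inside the risk-allele range. The estimates were 1.46 ± 0.59 against Control (adjusted p = 0.0829), not called, and 1.92 ± 0.61 against wild type (single mutant) (adjusted p = 0.0332). The call of Ngfr against Control was lost without any 1 of G1 replicate 1, G2 replicate 1 and Control replicates 1 and 3 (highest adjusted p over all alternatives 0.0733), and that against wild type (single mutant) without any 1 of G1 replicate 1, G2 replicate 1 and wild type (single mutant) replicates 1 and 2 (highest adjusted p over all alternatives 0.0834). Against wild type (single mutant), the call of Tnfrsf11a was lost without wild type (single mutant) replicate 1 (highest adjusted p over all alternatives 0.0642) and that of Eda2r without any 1 of G1 replicates 1 and 2, G2 replicate 1 and wild type (single mutant) replicates 1 and 2 (highest adjusted p over all alternatives 0.0979).

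Tnfrsf21 (ENSMUSG00000023915.4, chr17:43016555-43089189, plus strand), known as death receptor 6, was the member with the highest level per kilobase and the only one called lower. It had 422 and 348 CPM in G1 kidneys and 277 and 233 CPM in G2 kidneys, against 413, 546 and 312 CPM in wild type (single mutant) kidneys and 457, 408 and 589 CPM in Control kidneys. The G2 libraries were the 2 lowest of the 10, while the G1 libraries overlapped both other groups. The edgeR log2 fold change was -0.63 ± 0.20 against Control (adjusted p = 0.0352) and -0.44 ± 0.20 against wild type (single mutant) (adjusted p = 0.113), and the second of these was not called. Its call against Control was lost without any 1 of G1 replicates 1 and 2, G2 replicates 1 and 2, wild type (single mutant) replicate 1 and Control replicates 1 and 3 (highest adjusted p over all alternatives 0.132). When libraries were scaled by their totals alone, the value against Control was -0.36 (adjusted p = 0.123). Under that scaling the median over all genes was 0.277, against 0.003 with TMM, so relative to the median the value stayed lower. The share of higher genes among all genes called was then 79.0%, against 51.7% with TMM.

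Other receptors did not pass the test in either comparison. Fas, the receptor of Fas ligand and itself a p53 target, had 10.4 to 14.3 CPM in G1 and G2, against 6.39 to 10.6 CPM in wild type (single mutant) and 6.60 to 11.98 CPM in Control. Its log2 fold change was 0.38 ± 0.24 against Control, with a 95% interval of -0.15 to 0.92, and 0.65 ± 0.24 against wild type (single mutant) (0.10 to 1.19). Tnfrsf14 (HVEM) was at -0.34 ± 0.44 against Control (-1.34 to 0.66) and Tnfrsf11b, the soluble RANKL decoy osteoprotegerin, at -0.12 ± 0.70 (-1.72 to 1.47). Tnfrsf19 (TROY) was uneven, with 0.341 and 1.99 CPM in G1 kidneys and 1.23 and 13.9 CPM in G2 kidneys, against 0.958, 2.05 and 1.67 CPM in wild type (single mutant) kidneys and 1.87, 0.869 and 2.59 CPM in Control kidneys. One G2 library was far above the other 9, and its interval against Control ran from -1.11 to 2.60.

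**Figure D3:**
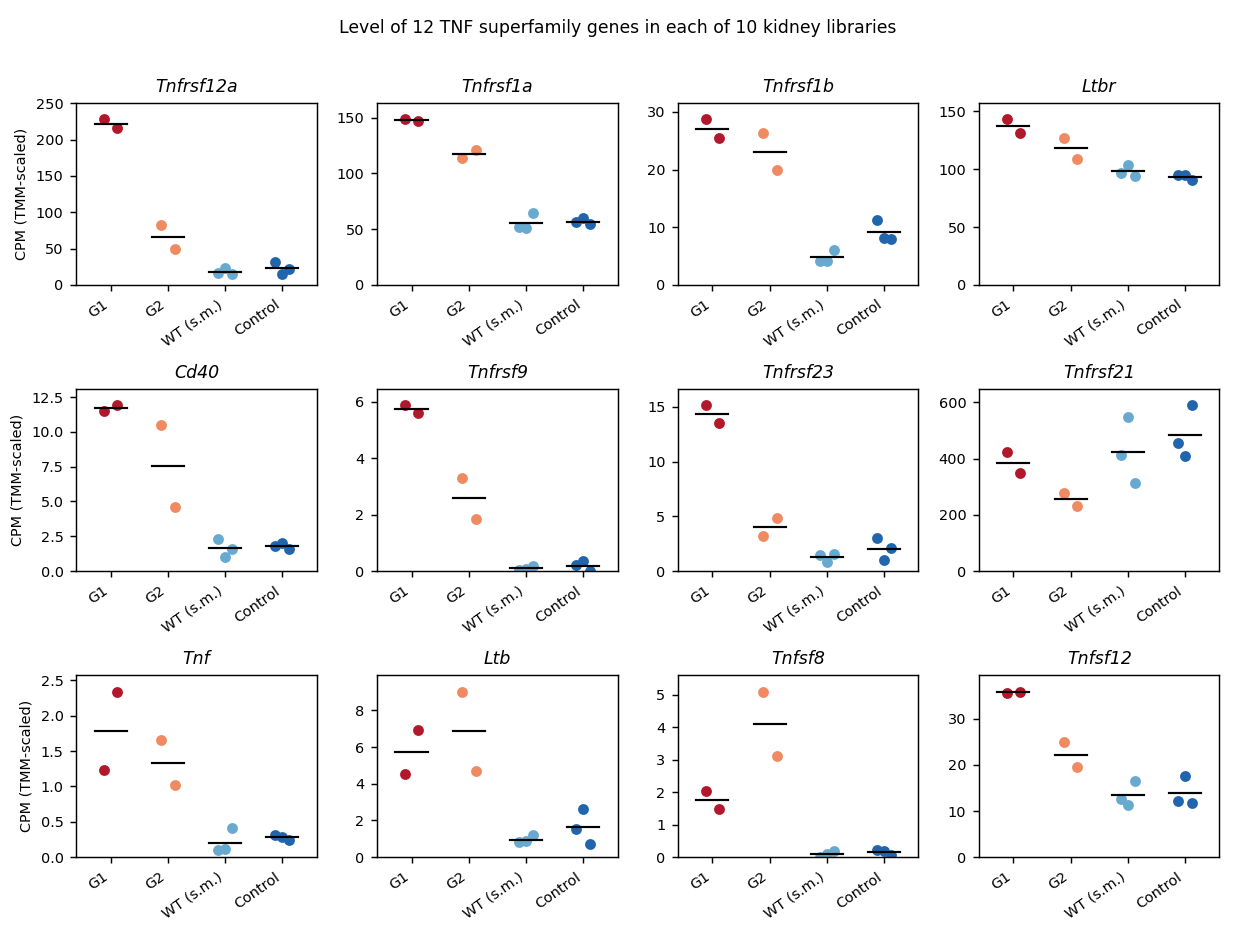
CPM (vertical axis, from 0) of 12 members in each of the 10 libraries. Points are libraries and bars are group means; WT (s.m.) is the wild type (single mutant) group. In 11 panels both risk-allele groups lie above the other groups, and in the Tnfrsf21 panel the G2 libraries, 277 and 233 CPM, are the lowest.

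The founding ligands sit side by side within the major histocompatibility region, Ltb, Tnf and Lta, at chr17:35194439-35205351 (GRCm38), with gaps of 3.06 kb and 1.16 kb. TNF is the family's main inflammatory cytokine, lymphotoxin beta anchors lymphotoxin alpha to the membrane, and their transcription is a textbook NF-kB response. Tnf (ENSMUSG00000024401.13, chr17:35199381-35202007, minus strand) had 1.23 and 2.34 CPM in G1 kidneys and 1.66 and 1.02 CPM in G2 kidneys, against 0.103, 0.11 and 0.409 CPM in wild type (single mutant) kidneys and 0.312, 0.29 and 0.239 CPM in Control kidneys. All G1 and G2 libraries were above the other 6. Fitted over all genes, the log2 fold change was 2.44 ± 0.50 against Control (adjusted p = 0.00531) and 2.87 ± 0.52 against wild type (single mutant) (adjusted p = 0.00249). Ltb (ENSMUSG00000024399.5, chr17:35194439-35196320, plus strand) had 4.51 and 6.93 CPM in G1 kidneys and 9.02 and 4.68 CPM in G2 kidneys, against 0.821, 0.876 and 1.19 CPM in wild type (single mutant) kidneys and 1.56, 2.61 and 0.716 CPM in Control kidneys. It too showed no overlap, although 1 Control library reached 2.61 CPM. The log2 fold change was 1.94 ± 0.43 against Control (adjusted p = 0.00806) and 2.69 ± 0.45 against wild type (single mutant) (adjusted p = 0.0018). Lta (ENSMUSG00000024402.5, chr17:35203165-35205351, minus strand) differed from its neighbours in its call. It had 0.288 and 0.353 CPM in G1 kidneys and 0.454 and 0.274 CPM in G2 kidneys, against 0.171, 0.146 and 0.238 CPM in wild type (single mutant) kidneys and 0.243, 0.362 and 0.636 CPM in Control kidneys, and its log2 fold change was -0.27 ± 0.40 against Control (adjusted p = 0.624) and 0.86 ± 0.43 against wild type (single mutant) (adjusted p = 0.145). Lta held 25 counts over the G1 libraries and 25 over G2, against 16 over wild type (single mutant) and 33 over Control. Its G1 and G2 libraries lay above wild type (single mutant) without overlap and overlapped Control. Tnf passed the low-count filter through the G1 and G2 libraries alone. Leaving out wild type (single mutant) replicate 3 moved the Tnf value against that group to 3.81.

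The promoters of these 3 neighbours are shown because Ltb and Tnf were called and Lta, with few counts, was not. They are RefSeq promoters on GRCm38.p6, from 250 bases before to 50 after the start, 5′ to 3′, with capitals at matches to the general kappa B pattern bound by NF-kB. The pattern is GGGA and CC with any 4 bases between them, searched on both strands. Promoters of Tnfrsf9 and Tnfrsf13b, immune receptors called higher, are added because both hold a match. RefSeq lists 2 promoters for Tnfrsf9; the one shown holds the match, and the other, at chr4:150919905-150920204, holds none.

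Ltb promoter, chr17:35194257-35194556, plus strand: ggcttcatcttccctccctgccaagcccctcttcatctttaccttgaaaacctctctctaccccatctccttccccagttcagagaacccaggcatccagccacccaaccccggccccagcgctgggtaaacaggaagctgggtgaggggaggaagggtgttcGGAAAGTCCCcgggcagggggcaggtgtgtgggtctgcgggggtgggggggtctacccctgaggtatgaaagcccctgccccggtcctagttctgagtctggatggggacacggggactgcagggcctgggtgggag

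Tnf promoter, chr17:35201958-35202257, minus strand: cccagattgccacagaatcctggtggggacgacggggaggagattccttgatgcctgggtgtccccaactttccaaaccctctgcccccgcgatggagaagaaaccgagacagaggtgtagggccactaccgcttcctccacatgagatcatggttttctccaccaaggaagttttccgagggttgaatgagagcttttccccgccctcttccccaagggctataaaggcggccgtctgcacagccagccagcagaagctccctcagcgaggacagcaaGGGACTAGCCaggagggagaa

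Lta promoter, chr17:35205302-35205601, minus strand: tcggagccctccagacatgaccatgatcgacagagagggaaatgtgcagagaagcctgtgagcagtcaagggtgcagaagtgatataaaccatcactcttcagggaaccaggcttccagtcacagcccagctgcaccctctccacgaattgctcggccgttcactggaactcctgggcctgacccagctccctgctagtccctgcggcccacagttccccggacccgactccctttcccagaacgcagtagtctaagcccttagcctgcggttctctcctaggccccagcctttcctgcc

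Tnfrsf9 promoter, chr4:150927749-150928048, plus strand: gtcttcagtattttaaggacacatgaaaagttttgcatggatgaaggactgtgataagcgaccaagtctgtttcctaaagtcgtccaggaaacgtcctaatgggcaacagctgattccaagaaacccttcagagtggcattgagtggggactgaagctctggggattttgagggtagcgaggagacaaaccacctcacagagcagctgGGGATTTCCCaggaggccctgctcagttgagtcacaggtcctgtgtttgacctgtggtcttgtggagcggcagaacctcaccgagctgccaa

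Tnfrsf13b promoter, chr11:61126505-61126804, plus strand: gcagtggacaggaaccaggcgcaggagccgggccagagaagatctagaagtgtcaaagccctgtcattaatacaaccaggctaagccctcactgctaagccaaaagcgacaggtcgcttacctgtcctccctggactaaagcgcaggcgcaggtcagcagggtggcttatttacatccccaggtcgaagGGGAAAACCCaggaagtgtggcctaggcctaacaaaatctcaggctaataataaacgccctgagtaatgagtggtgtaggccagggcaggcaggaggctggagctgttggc

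Ltb held GGAAAGTCCC with its first base at position -87 from the start, Tnf held GGGACTAGCC at 30, and the Lta window held no match. The Tnfrsf9 window shown held GGGATTTCCC at -42 and Tnfrsf13b GGGAAAACCC at -61. A promoter was listed for 34 of the 44 members, and 10 of these (29.4%, Wilson 95% interval 16.8 to 46.2) held the pattern, against 22.9% of the 27025 genes in the table. By call against Control, a match was found in 5 of the 15 higher members with a promoter, in 3 of the 12 not called and in 0 of the 1 lower member. The share in members lay within its interval of the share in all genes, and a match describes these letters only.

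Tnfsf8 (ENSMUSG00000028362.2, chr4:63831308-63861347, minus strand), the CD30 ligand of activated T cells and myeloid cells, had 2.04 and 1.49 CPM in G1 kidneys and 5.1 and 3.11 CPM in G2 kidneys, against 0, 0.11 and 0.204 CPM in wild type (single mutant) kidneys and 0.208, 0.181 and 0.0795 CPM in Control kidneys. It was near the limit of detection outside the risk-allele kidneys, with 9 counts over the wild type (single mutant) libraries and 13 over Control. On the log2 scale it was 4.05 ± 0.62 against Control (adjusted p = 0.00128) and 4.63 ± 0.65 against wild type (single mutant) (adjusted p = 0.000755). Without wild type (single mutant) replicate 3 the second value was 5.56. Its receptor Tnfrsf8 (CD30) was too low to test, with 5 counts summed over the G1 libraries and 8 over G2, against 12 over wild type (single mutant) and 17 over Control.

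Tnfsf12 (ENSMUSG00000097328.6, chr11:69686250-69695849, minus strand) encodes TWEAK, the ligand of Fn14. It had 35.6 and 35.9 CPM in G1 kidneys and 25 and 19.5 CPM in G2 kidneys, against 12.6, 11.4 and 16.5 CPM in wild type (single mutant) kidneys and 12.3, 17.5 and 11.7 CPM in Control kidneys. All 4 risk-allele libraries were above the rest, the G2 libraries by less. In log2 terms the fold change was 1.03 ± 0.19 against Control (adjusted p = 0.00304) and 1.07 ± 0.19 against wild type (single mutant) (adjusted p = 0.00219). The read-through gene Tnfsfm13 (ENSMUSG00000018752.18, chr11:69682577-69696098, minus strand), which joins Tnfsf12 with Tnfsf13 (APRIL), had 5.11 and 4.36 CPM in G1 kidneys and 2.05 and 2.37 CPM in G2 kidneys, against 1.51, 1.42 and 1.87 CPM in wild type (single mutant) kidneys and 1.67, 2.21 and 1.35 CPM in Control kidneys. The first G2 library lay below the highest Control library. The edgeR log2 fold change was 0.89 ± 0.22 against Control (adjusted p = 0.0139) and 1.01 ± 0.23 against wild type (single mutant) (adjusted p = 0.00719), and the first call was lost without Control replicate 3 (highest adjusted p over all alternatives 0.0523). Tnfsf13 itself (ENSMUSG00000089669.6, chr11:69682846-69685784, minus strand) had 1.15 and 1.49 CPM in G1 kidneys and 0.39 and 0.523 CPM in G2 kidneys, against 0.718, 1.02 and 0.783 CPM in wild type (single mutant) kidneys and 0.832, 0.652 and 0.676 CPM in Control kidneys and was not called, at 0.11 ± 0.26 against Control (adjusted p = 0.769) and -0.11 ± 0.25 against wild type (single mutant) (adjusted p = 0.761). On the same strand, Tnfsfm13 overlaps 48.3% of the exon bases of Tnfsf12 and 60.0% of those of Tnfsf13, so reads of the 3 genes cannot be fully told apart and their values are uncertain. The antisense gene Tnfsf13os overlaps 13.5% of the exon bases of Tnfsf13 and 11.3% of those of Tnfsfm13.

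Of the immune cell ligands, Tnfsf9 (ENSMUSG00000035678.7, chr17:57105325-57107757, plus strand), which binds CD137, had 0.76 and 2.04 CPM in G1 kidneys and 1.46 and 3.61 CPM in G2 kidneys, against 0.41, 0.402 and 0.511 CPM in wild type (single mutant) kidneys and 1.49, 0.326 and 0.795 CPM in Control kidneys. Control libraries overlapped the risk-allele range and wild type (single mutant) libraries did not. The estimates were 1.11 ± 0.55 against Control (adjusted p = 0.146), not called, and 2.09 ± 0.59 against wild type (single mutant) (adjusted p = 0.0209). The noncoding gene Gm11110 overlaps 14.9% of its exon bases on the opposite strand. Tnfsf13b (ENSMUSG00000031497.8, chr8:10006467-10039072, plus strand), the B cell survival factor BAFF, had 1.15 and 1.18 CPM in G1 kidneys and 4.25 and 2.62 CPM in G2 kidneys, against 0.582, 0.329 and 1.02 CPM in wild type (single mutant) kidneys and 0.798, 1.16 and 0.278 CPM in Control kidneys. The G2 libraries were the highest. It was 1.41 ± 0.50 against Control (adjusted p = 0.0509), not called, and 1.63 ± 0.50 against wild type (single mutant) (adjusted p = 0.0298). Tnfsf14 (LIGHT) ranged from 0.473 to 1.23 CPM in G1 and G2, against 0.256 to 0.545 CPM in wild type (single mutant) and 0.119 to 0.347 CPM in Control. Fitted over all genes, the log2 fold change was 1.57 ± 0.49 against Control (adjusted p = 0.0329) and 0.97 ± 0.46 against wild type (single mutant) (adjusted p = 0.124), and the second was not called. The call of Tnfsf9 was lost without any 1 of G1 replicate 2, G2 replicate 2 and wild type (single mutant) replicates 1 and 2 (highest adjusted p over all alternatives 0.0711), that of Tnfsf13b without any 1 of G1 replicates 1 and 2, G2 replicate 1 and wild type (single mutant) replicates 1 and 2 (highest adjusted p over all alternatives 0.0953) and that of Tnfsf14 without any 1 of G1 replicates 1 and 2, G2 replicate 1 and Control replicates 1, 2 and 3 (highest adjusted p over all alternatives 0.1).

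Tnfsf10 (TRAIL), among the ligands second in level per kilobase, was not called. It had 43.5 to 75.5 CPM in G1 and G2, against 39.5 to 61.9 CPM in wild type (single mutant) and 37.7 to 90.1 CPM in Control. Its log2 fold change was -0.25 ± 0.27 against Control, with a 95% interval of -0.86 to 0.37, and 0.06 ± 0.27 against wild type (single mutant) (-0.56 to 0.67). Tnfsf15 (TL1A) was not called, at -0.98 ± 0.48 against Control (-2.07 to 0.10) and -0.47 ± 0.49 against wild type (single mutant) (-1.57 to 0.63).

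The 9 members with too few counts to test were 3 receptors, Tnfrsf8, Tnfrsf13c and Tnfrsf17, and 6 ligands. They are listed by summed counts per group. Fasl, the Fas ligand of cytotoxic T cells, had 14 counts in G1 and 14 in G2, against 11 in wild type (single mutant) and 12 in Control. Cd40lg had 2 in G1 and 18 in G2, against 6 in wild type (single mutant) and 2 in Control. Tnfsf11 (RANKL) had 3 in G1 and 19 in G2, against 3 in wild type (single mutant) and 2 in Control. Tnfsf18 (GITR ligand) had 13 in G1 and 5 in G2, against 4 in wild type (single mutant) and 2 in Control. Cd70 had 0 in G1 and 3 in G2, against 1 in wild type (single mutant) and 0 in Control, and Tnfsf4 (OX40 ligand) had 1 in G1 and 3 in G2, against 3 in wild type (single mutant) and 1 in Control. Tnfrsf13c had 10 in G1 and 12 in G2, against 12 in wild type (single mutant) and 13 in Control, and Tnfrsf17 had 8 in G1 and 8 in G2, against 8 in wild type (single mutant) and 15 in Control. In the sums of Cd40lg and Tnfsf11 the G2 pair held most of the counts. These genes were below the level at which a difference could be tested at this depth.

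G1 and G2 were also set against Control one at a time, with the same 3 Control libraries in both comparisons. In G1, 17 of 35 members were higher and 0 lower by the edgeR test, where 19.5% of all genes were called higher and 17.9% lower. With DESeq2, 16 members were higher and 0 lower, and 19 of 35 members and 47.3% of all genes passed an unadjusted p under 0.05 in edgeR. In G2, 17 were higher and 1 (Tnfrsf21) lower, where 12.7% of all genes were called higher and 8.86% lower. With the G2 and Control libraries fitted by themselves, 9 members were higher. Both G2 libraries lay above all 3 Control libraries for 21 members, where 27.5% of all genes did so. Tnf, Tnfrsf9 and Tnfsf8 were among these 21. Tnfrsf1a was 1.38 ± 0.12 in G1 (adjusted p = 7.55e-05) and 1.04 ± 0.12 in G2 (adjusted p = 0.000924). Tnfsf8 was 3.45 ± 0.66 in G1 (adjusted p = 0.00385) and 4.66 ± 0.66 in G2 (adjusted p = 0.00232). Tnfrsf21 was -0.33 ± 0.24 in G1 (adjusted p = 0.309), not called, and -0.93 ± 0.25 in G2 (adjusted p = 0.0283). Of the 17 members called in G1, 12 were called under all 15 alternatives, and of the 18 called in G2, 4 were (Tnfrsf1a, Tnfrsf1b, Tnfrsf9 and Tnfsf8). The last pair passed the low-count filter through the G1 and G2 libraries alone. Without Tnf, Tnfrsf9 and Tnfsf8, 14 of 32 members were called higher in G1 and 14 of 32 in G2. Tnfsf12, Tnfsfm13, Tnfrsf23, Eda2r and Tnfsf13 were called in G1 and not in G2, while Cd27, Ngfr, Tnfrsf18, Tnfrsf4 and Tnfsf13b were called higher in G2 and not in G1. Of these, the difference between the alleles was itself called for Tnfrsf23 and Tnfsf13. Several lay near the edgeR threshold, with adjusted p = 0.0516 for Tnfsf12 in G2, 0.046 for Eda2r in G1, 0.0459 for Tnfsf13 in G1 and 0.0444 for Cd27 in G2. Of 15 alternatives, 7 kept the call of Eda2r, 5 that of Tnfsf13 and 5 that of Cd27. Without G2 replicate 1, Cd40 in G2 stood at 1.32 and Ltb at 1.47, and neither was called. Without Control replicate 2, Tnfrsf9 in G2 stood at 4.51, and without Control replicate 1, Eda2r in G1 stood at 2.86.

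The direct comparison of G2 with G1 called 3 members lower in G2 and 0 higher, where 2.88% of all genes were called lower and 3.84% higher. With DESeq2, 6 members were lower and 0 higher, and 9 of 35 members and 24.5% of all genes passed an unadjusted p under 0.05 in edgeR in either direction. Tnfrsf12a, whose values in each library stand above, differed by -1.75 ± 0.36 (adjusted p = 0.0274), Tnfrsf23 by -1.82 ± 0.45 (adjusted p = 0.0475) and Tnfsf13 by -1.52 ± 0.34 (adjusted p = 0.0354). In all 3, both G2 libraries were below both G1 libraries, as in 16 of the 35 members and 26.7% of all genes; the reverse held for 8 members and 29.2% of all genes. The call of Tnfrsf12a was lost without any 1 of G1 replicates 1 and 2 and G2 replicate 2 (highest adjusted p over all alternatives 0.131), that of Tnfrsf23 without any 1 of G1 replicates 1 and 2, G2 replicates 1 and 2, wild type (single mutant) replicate 1 and Control replicate 3 (highest adjusted p over all alternatives 0.208) or with library totals alone, and that of Tnfsf13 without any 1 of G1 replicates 1 and 2, G2 replicates 1 and 2, wild type (single mutant) replicate 1 and Control replicate 1 (highest adjusted p over all alternatives 0.172) or with the 2 groups fitted by themselves. Tnfsfm13, which shares exons with Tnfsf13, was at -1.10 ± 0.28 (adjusted p = 0.0534), not called. The widest interval was that of Tnfrsf19, 0.23 to 5.17. Of the 9 injured tubule markers, 4 were called lower in G2 than in G1, with sums in the ranges given above. Of the 9 endothelial markers, 5 were called higher in G2 than in G1, and of the 8 fibroblast and pericyte markers, 4. The part of these cells in the differences was not tested.

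**Figure D4:**
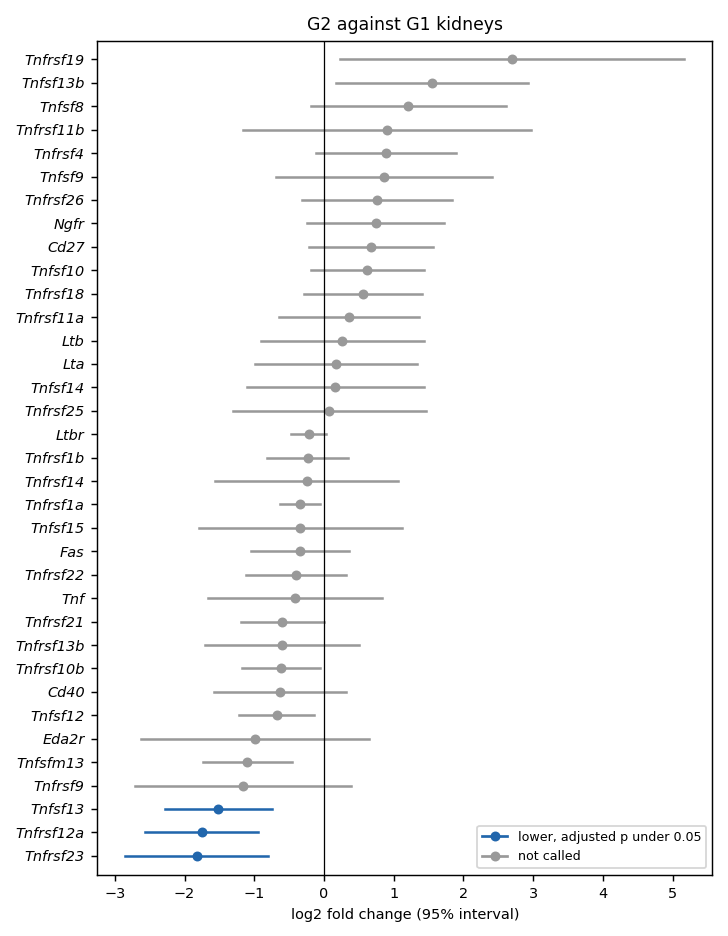
Log2 fold change of G2 against G1 (horizontal axis) with its 95% interval for the 35 tested members, ordered by estimate. Blue marks the 3 members called lower in G2, Tnfrsf23, Tnfrsf12a and Tnfsf13 at -1.82, -1.75 and -1.52, and grey the 32 not called.

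Between wild type (single mutant) and Control, edgeR called 0 of the 35 members, and 0% of all genes were called in either direction. DESeq2 also called 0 members. At an unadjusted p under 0.05 there were 3 of 35, Tnfrsf1b, Tnfrsf25 and Lta, where 4.06% of all genes passed. Tnfrsf1b was the lowest in p, at -0.93 ± 0.22 (unadjusted p = 0.00197, adjusted p = 1.0), and its wild type (single mutant) libraries were all below its Control libraries. Its fold change for the mean of G1 and G2 was 2.38 against wild type (single mutant) and 1.45 against Control. Lta was at -1.13 ± 0.46 and Tnfrsf25 at 1.30 ± 0.53. The 3 members with wild type (single mutant) libraries all below Control were Tnfrsf1b, Lta and Tnfrsf10b, where 3.73% of all genes lay so.

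Set by ligand and receptor, the pairs differed against Control. For TNF, the ligand (2.44) and both receptors (1.21 and 1.45) were called higher, the ligand having passed the low-count filter through G1 and G2 alone. For lymphotoxin beta, Ltb (1.94) and its receptor Ltbr (0.44) were called. For TWEAK and Fn14, both Tnfsf12 (1.03) and Tnfrsf12a (2.41) were called. For TRAIL, the receptors Tnfrsf10b, Tnfrsf22 and Tnfrsf23 were called and the ligand was not. For CD137, the receptor Tnfrsf9, with the same filter limit as Tnf, was called and the ligand Tnfsf9 was not. For LIGHT, Tnfsf14 and the receptor Ltbr were called and its other receptor Tnfrsf14 was not. For CD40, OX40 and GITR the receptors were called and the ligands had too few counts to test. Of 15 alternatives, 6 kept the call of Tnfrsf4, 10 that of Tnfrsf18 and 9 that of Tnfsf14. For CD30, the ligand Tnfsf8, also with that filter limit, was called and the receptor had too few counts. TACI was called, and its ligands Tnfsf13b and Tnfsf13 were not. Lta (-0.27) and the receptors Tnfrsf11a, Fas, Tnfrsf25 and Cd27 were not called.

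Genes that act downstream of these receptors were read from the same fit against Control. Over all genes tested in that comparison, 19.3% were called higher and 18% lower. Of 37 adaptors and kinases of the pathway, 13 were higher, 4 lower and 20 not called, with a median log2 fold change of 0.19. Those with the lowest p were Birc3 (2.19 ± 0.18) and Birc2 (0.99 ± 0.08), ubiquitin ligases of the receptor complex, and the adaptors Traf1 (2.67 ± 0.28) and Traf2 (1.05 ± 0.11). The 4 called lower were Map3k5 (-0.81 ± 0.19), Bid (-0.76 ± 0.16), Cyld (-0.39 ± 0.12) and Traf6 (-0.36 ± 0.1). The next list held TNF alpha induced proteins, their Tnfaip8-like relatives and the Tnip partners of Tnfaip3. Of its 10 tested genes, 7 were higher and 1 lower. Without Tnip3, which passed the filter through G1 and G2 alone, 6 of 9 were higher and the median was 0.62. The higher ones included Tnfaip3 (1.92 ± 0.17), the A20 enzyme that restrains NF-kB, its partner Tnip1 (0.68 ± 0.12), Tnfaip1 (0.58 ± 0.08) and Tnfaip8l2 (2.05 ± 0.33). The lower one was Tnfaip8 (-1.18 ± 0.32), and Tnfaip2 was not called (0.44 ± 0.32). The other higher genes, Tnip2, Tnip3 and Tnfaip8l1, were partners or relatives.

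Against Control, 19.3% of all genes tested were called higher and 18% lower, the share beside which the next lists stand. Of 7 genes that control shedding of ligands and receptors, 4 were higher and 2 lower. Of the 4, Mmp7 passed the low-count filter through G1 and G2 alone, and without it the median was 0.28. Timp3, an inhibitor of the TNF-releasing protease ADAM17, fell (-1.59 ± 0.19), as did the protease Furin (-0.39 ± 0.09). Rhbdf2, which escorts ADAM17 to the cell surface, rose (1.33 ± 0.19), as did the protease Adam10 (0.70 ± 0.11). Adam17 itself was higher by little, 0.26 ± 0.09, with an edgeR adjusted p of 0.0454, and Rhbdf1 was not called (0.30 ± 0.14). Of 3 family members named outside the symbol rule, Relt rose (2.44 ± 0.31), and Eda (0.94 ± 0.45) and Edar (0.02 ± 0.35) were not called. Of 11 immunoglobulin-superfamily costimulators, 8 were higher and 0 lower, but 4 of the 8 (Cd80, Ctla4, Pdcd1 and Pdcd1lg2) passed the low-count filter through the G1 and G2 libraries alone. Without these, 4 of 7 were higher and 0 lower, with a median of 1.24. Cd276 (3.11 ± 0.38), Cd86 (1.92 ± 0.24) and Vtcn1 (2.63 ± 0.34) were among them, and Pdcd1 was at 3.0 ± 0.70 with the limit just given. Of the other cell marker lists, all 3 neutrophil markers tested of 9 were higher, S100a8 and S100a9 having passed the filter through G1 and G2 alone, 3 of 8 fibroblast and pericyte markers were higher, 1 of 9 endothelial markers was lower, and 0 of 8 podocyte markers were called. Taken by allele, 6 of 9 endothelial markers were lower in G1 against Control and 0 of 9 were called in G2. Of all genes, 17.9% were called lower in G1, and 12.7% higher and 8.86% lower in G2. The endothelial sum was 284 to 316 CPM in G1 and 534 to 813 CPM in G2, against 381 to 701 CPM in wild type (single mutant) and 514 to 566 CPM in Control.

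Neutrophil markers summed to 4.25 to 6.57 CPM in G1 and 4.53 to 5.87 CPM in G2, against 1.09 to 1.74 CPM in wild type (single mutant) and 1.11 to 2.35 CPM in Control. Elane and Camp were at 0 throughout G1, Mpo throughout G2, and Mpo, Elane and Camp throughout wild type (single mutant). The fibroblast and pericyte sum was 516 to 660 CPM in G1 and 1130 to 1570 CPM in G2, against 349 to 376 CPM in wild type (single mutant) and 340 to 436 CPM in Control. Col1a1 and Col1a2 supplied much of it in G1, at 191 and 229 CPM in replicate 1 and 133 and 171 CPM in replicate 2. Against Control, 2 of these 8 markers were higher and 3 lower in G1, where 19.5% and 17.9% of all genes were. In G2, 4 were higher and 0 lower, where 12.7% and 8.86% of all genes were. The part of these cells in the ligand and receptor values was not tested.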

How the data were processed

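The files hold whole-number read counts per gene for 10 mouse kidney libraries, deposited by the authors without normalization, 1 table per library. Per the labels, libraries were single-end, 100 bases long, from poly(A) RNA. The submitters' processing notes name STAR 2.4.1d, HTSeq 0.6.1, CASAVA 1.8.2, Trim Galore and FastQC, and GRCm38. Which annotation release and which strand setting were used is not given in the sources used here. Symbols and coordinates came from GENCODE M21 (GRCm38), which matched 46005 of 46517 IDs.

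Groups follow the genotype label, and replicate numbers are accession order. Compared in pairs, libraries had a chi-square per gene of at least 26.2, so no library was a repeat of another within sampling noise. All 10 libraries entered 1 edgeR 4.0.16 quasi-likelihood fit (R 4.3.3) with a mean per group, TMM scaling and filterByExpr at a minimum count of 10, which 17823 genes passed; common biological coefficient of variation was 0.249. The threshold was a Benjamini-Hochberg adjusted p under 0.05 over all genes tested. The procedure was tested on simulated data. Intervals are 95% and floors of 3 counts cover counting error only.

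Members and gene lists were chosen with earlier results of these data known, so no list serves as independent support. Values in every library are given for members called against Control or wild type (single mutant) whose mean was 1 CPM or more and whose groups were apart, for those called in G2 against G1, and for Tnf, Tnfrsf1a and Tnfrsf1b. Lta and Tnfrsf19 are given as well, chosen after their values were seen. Of each pathway list, up to 4 genes with the lowest p are named, and any called lower against Control. Some further genes of these lists are named to complete a count or to state a limit. Alternatives were DESeq2 1.42.0, its size factors, library totals alone, no low-count filter, the compared groups alone, each library left out, and a stricter motif. Promoters came from RefSeq (GRCm38.p6).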

Additional observations from a re-analysis of the deposited data

Results flagged for a closer look

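The direct comparison of the alleles marks 3 genes for a closer look, because the log2 fold change of G2 against G1 is itself a tested difference between the effects of the 2 alleles set against the same Control libraries. Tnfrsf12a, the TWEAK receptor, was lower in G2 by -1.75. Tnfrsf23, a TRAIL decoy receptor, was lower in G2 by -1.82. Tnfsf13 (APRIL), which shares exon bases with a read-through gene, was lower in G2 by -1.52. All 3 passed edgeR's adjusted threshold, and all 3 calls were lost when either G1 library was left out. No group had the 4 samples needed to test for a single outlying library.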

How the results depend on the processing

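Over 15 alternatives no called member changed sign. Against Control, 14 of the 20 calls held in all alternatives, and against wild type (single mutant) 17 of 22. For G1 the figure was 12 of 17, for G2 4 of 18, and for G2 against G1 0 of 3. Among the calls that held were Tnfrsf9 and Tnfsf8 in all but the last of these comparisons. Tnf was among them in both comparisons of the mean of G1 and G2. These members passed the low-count filter through the G1 and G2 libraries alone. With single libraries left out, the number of higher members was 14 to 20 against Control, 17 to 23 against wild type (single mutant), 13 to 17 for G1 and 5 to 18 for G2. The number of lower members was 0 to 1 in these 4 comparisons and 0 to 4 for G2 against G1. In wild type (single mutant) against Control it was 0 throughout, in either direction. With library totals alone, 0 members were lower against Control. With the groups compared fitted by themselves, 9 members were higher in G2. DESeq2 gave 6 members lower in G2 than in G1. The stricter motif, GGGA and TTCC with any 2 bases between, was in 2.94% of member promoters. For all these changes the cause was not tested, beyond the fewer samples that the reduced fits hold. Over all genes, G2 against G1 gave 684 higher and 514 lower genes with edgeR and 1222 higher and 1277 lower with DESeq2, and from 11 to 850 higher and 11 to 591 lower with a library left out. Against Control the mean of G1 and G2 gave 3441 higher and 3212 lower genes with TMM and 6036 higher and 1601 lower with library totals alone. G2 against Control gave 2264 higher and 1579 lower genes, and 1548 higher and 962 lower with the compared groups fitted by themselves. No paired analysis was possible because replicate numbers are accession order and the labels pair no libraries. Groups of 2 and 3 libraries limit all these estimates, and members under about 0.323 CPM could not be tested.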
